A study of Mus musculus with 16 samples.

Results

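Oxidative phosphorylation (OXPHOS) subunit genes were taken as a group from the expression table by gene symbol: names beginning Nduf followed by a, b, c, s or v and a digit, the 4 Sdh genes, and names beginning Uqcr, Cox4 to Cox8 or Atp5, with pseudogene names dropped. The rule found 83 genes among 20056 symbols: 37 assigned to complex I, 4 to complex II, 8 to complex III, 17 to complex IV and 17 to complex V. Expression had been measured by poly(A) RNA-seq in mesenchymal stem cells (MSCs) and osteoblasts (OBs) sorted from 4 wild-type mice and from 4 mice made miR-9-1-deficient by CRISPR/Cas9 editing, giving 4 groups of 4 libraries (MSC wild-type, MSC deficient, OB wild-type, OB deficient). The labels give no age, sex, strain or sort gate, and name no further allele or treatment in any group. Letters name the mice, A to D for wild-type and E to H for deficient animals, and an MSC and an OB library with the same animal number carry the same letter. The study's question was the role of this microRNA locus in the marrow niche of lymphocyte formation.

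Complexes I and II pass electrons from NADH and succinate to ubiquinone, complex III passes them to cytochrome c, and complex IV passes them to oxygen. Complexes I, III and IV pump protons across the inner mitochondrial membrane, and complex V, the ATP synthase, lets them flow back to make ATP. Each complex except complex II joins nuclear-encoded subunits to mitochondrially encoded ones, and several complex IV subunits exist as a ubiquitous form and a form restricted to certain tissues or conditions. Bone marrow stromal cells draw much of their ATP from glycolysis, and osteoblast differentiation is known to be accompanied by changes in mitochondrial respiration. The 13 mitochondrially encoded subunits were not analysed here.

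MSC libraries held 10148197 to 14246986 reads assigned to genes and OB libraries 15543693 to 18962771. The cell identity behind the labels was checked with marker lists. Of 15 bone matrix and osteoblast markers, 9 were lower and 1 was higher in wild-type OBs than in wild-type MSCs, and the summed level was 229895 to 448052 normalized counts in wild-type OB libraries against 1428509 to 1877639 in wild-type MSC libraries, so bone matrix genes do not set the sample called OB apart as the richer one. All 11 erythroid markers were higher in OBs in both genotypes, while of 15 blood progenitor markers 10 were higher and 3 lower in wild-type and 11 higher and 2 lower in deficient mice. Lower in wild-type OBs were 14 of 15 MSC stroma, 8 of 10 neutrophil and 8 of 10 B-lineage markers (median log2 fold changes -3.36, -3.05 and -2.14). Of all genes tested, 34.4% were higher and 35.5% lower in wild-type OBs, and 29% and 30.6% in deficient OBs. Xist, expressed in females, and the Y-linked Ddx3y were both present in all 8 OB libraries (Xist 3720 to 8053, Ddx3y 649 to 1939), so each of these libraries may hold RNA of more than 1 mouse, and nothing shows that they are independent animals. In MSCs, Ddx3y reached 1848 to 3355 in libraries A, E and F and 29.8 to 78.1 in the other 5, so sex was not balanced between genotypes. The OB libraries lettered as those 5 held far more Ddx3y than their MSC libraries. A shared letter, or the mouse as a block below, thus means a shared animal number and does not show that both libraries come from 1 animal alone. The edited locus could not be checked: Mir9-1 was at 0 in all 8 MSC libraries and in 3 of 4 deficient OB libraries, and was 5.50, 10.4, 0 and 2.94 in wild-type OBs.

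The deposited values are normalized counts, which can be compared between libraries. To compare genes with each other, they were divided by transcript length in kilobases (kb). Over all 16 libraries the highest levels per kb belonged to Cox4i1, the ubiquitous form of complex IV subunit 4 (4782 normalized counts per kb), and to Atp5b, the catalytic beta subunit of the ATP synthase (4622). Atp5a1 (alpha subunit, 3060.0), Cox6a1 (2949.8) and Cox8a (2741) followed. The median level per kb was 625 in complex I, 672 in complex II, 902 in complex III, 818 in complex IV and 987 in complex V. Among the highest were Ndufa4 (1628) and Ndufa6 (1126) in complex I, and in complex II Sdha (843), Sdhd (784) and Sdhb (559). In complex III the 3 highest were Uqcrh (2155), Uqcrq (1751) and Uqcr10 (1464), and the third of complex V was Atp5e (2474). The lowest of the genes assigned to each complex were Ndufb4 (46.1), Sdhc (221), Uqcrc2 (724), Cox8c (0.355) and Atp5s (66.3).

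Many nuclear OXPHOS genes are known to carry sites for nuclear respiratory factor 1 (NRF1) and the ETS factor GABPA near their start sites. RefSeq promoter sequence (250 bases before to 50 after the start, GRCm38.p6) was matched for 66 of the 83 genes. An NRF1 motif (CGCANGCG, both strands) stood in 39.4% of these promoters and in 14.8% of the 14761 promoters of genes in the table. A GABPA motif (CCGGAAG, both strands) stood in 24.2% against 15.1%, and one or the other in 53.0% against 26.7%. The YY1 motif AAGATGGC stood in 15.2% against 4.03%. By complex, the NRF1 motif was found in 10 of 14 promoters of complex V, 3 of 5 of complex III, 2 of 3 of complex II, 10 of 32 of complex I and 1 of 12 of complex IV. The bases upstream of the start site are shown for 1 gene of each complex, the one with the largest OB over MSC fold among genes that passed in both genotypes and held a match in this stretch. The sequences run 5′ to 3′ up to the start site, with NRF1 and GABPA matches in capitals.
Ndufa12 (chr10:94198915-94199034, plus strand): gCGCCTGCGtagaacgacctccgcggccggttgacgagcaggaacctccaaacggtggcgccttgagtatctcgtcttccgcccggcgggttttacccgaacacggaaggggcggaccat
Sdhd (chr9:50603850-50603969, minus strand): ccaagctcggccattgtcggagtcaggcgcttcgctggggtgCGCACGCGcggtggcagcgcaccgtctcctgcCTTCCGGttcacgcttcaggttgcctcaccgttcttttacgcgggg
Uqcr11 (chr10:80406822-80406941, minus strand): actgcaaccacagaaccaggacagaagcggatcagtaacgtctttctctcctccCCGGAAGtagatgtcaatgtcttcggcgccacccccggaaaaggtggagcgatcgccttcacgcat
Cox6b1 (chr7:30626115-30626234, minus strand): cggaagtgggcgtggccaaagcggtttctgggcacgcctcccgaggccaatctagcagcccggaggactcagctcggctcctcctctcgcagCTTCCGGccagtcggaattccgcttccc
Atp5g2 (chr15:102671048-102671167, minus strand): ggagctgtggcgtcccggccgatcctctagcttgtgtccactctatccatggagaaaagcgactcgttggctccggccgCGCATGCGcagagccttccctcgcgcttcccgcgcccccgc
The capitals mark an NRF1 match in Ndufa12 and Atp5g2, a GABPA match in Uqcr11 and Cox6b1, and one of each in Sdhd. A match describes the letters only, and binding was not measured.

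In wild-type mice, 51 of 81 OXPHOS genes tested differed between OBs and MSCs, 44 higher and 7 lower in OBs (limma, Benjamini-Hochberg adjusted p under 0.05 over all genes tested). The 7 include Cox6a2, which had to differ, as described below. Of all genes tested, 69.9% differed, 34.4% higher and 35.5% lower in OBs, so the share that differed was not larger among OXPHOS genes, while 54.3% of them were higher and 8.64% lower. Their median log2 fold change was 0.31, against 0.01 over all genes. In deficient mice 45 of 80 differed, 43 higher and 2 lower, against 59.6% of all genes (29% higher, 30.6% lower), and the medians were 0.41 and -0.02. In all, 38 genes were higher and 2 lower in OBs in both genotypes, 6 passed as higher in wild-type and not in deficient mice, 5 in deficient and not in wild-type mice, and 0 passed in opposite directions. Passing in one genotype does not show a difference between them: the test of that difference called 0 of 81. Leaving out a single library ended 8 of the 44 calls in wild-type mice (Ndufa3, Ndufa6, Ndufa8, Uqcr11, Cox7b, Atp5h, Atp5j2 and Atp5k, of which 6 were lost without OB library B) and 12 of the 43 in deficient mice (Ndufa3, Ndufa8, Ndufa9, Ndufb7, Sdhc, Uqcrc1, Cox5b, Cox7a2, Cox7b, Atp5f1, Atp5j2 and Atp5k, of which 11 were lost without OB library G). Quantile normalization moved the wild-type median of all genes from 0.01 to 0.17 and that of OXPHOS genes from 0.31 to 0.38. In sorted bulk samples, fewer cells of a type and less RNA per cell cannot be told apart. Beside these differences, summed blood progenitor markers were 29759 to 32777 in wild-type OB libraries and 8782 to 18002 in wild-type MSC libraries, and erythroid markers 15273 to 18305 and 3949 to 7096. No marker of either list was at 0 in these groups, and the part of these cells in the OXPHOS difference was not tested.

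The complexes did not share the difference evenly. Complex III had 8 of 8 genes higher in wild-type OBs (median log2 fold change 0.55) and complex V 14 of 17 (0.43), with none lower. Complex II had 3 of 4 higher (0.27) and complex IV 9 of 15 higher and 2 lower (0.29), 1 of the 2 being Cox6a2, which had to differ. In complex I, 10 of 37 were higher (Ndufa4 among them) and 5 lower (Ndufa4l2 among them), and the median was 0.07. The share higher in complex I was thus not above the 34.4% of all genes. In deficient mice the counts higher were 7 of 8 in complex III (0.81), 12 of 17 in complex V (0.69), 2 of 4 in complex II (0.28), 9 of 14 in complex IV (0.46) and 13 of 37 in complex I (0.09). Counts by complex, and by class below, are to be read against the 34.4% higher and 35.5% lower of all genes in wild-type mice. In deficient mice these shares were 29% and 30.6%. The differences between complexes were not tested.

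**Figure D1:**
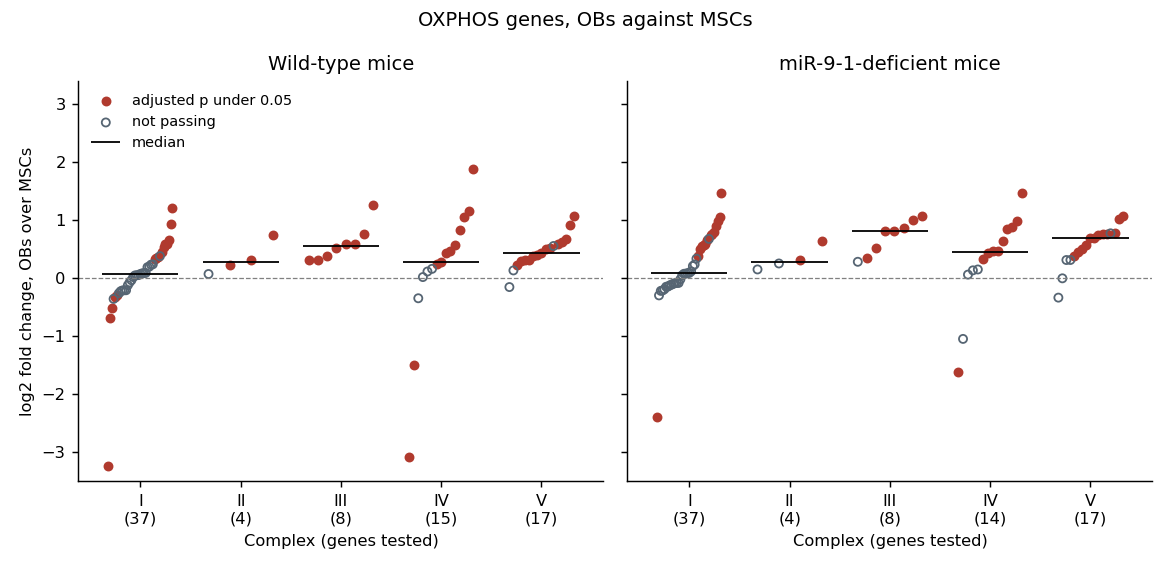
Log2 fold change of each OXPHOS gene in OBs over MSCs (vertical axis) by complex (horizontal axis), in wild-type mice (left) and miR-9-1-deficient mice (right). Filled points have a limma adjusted p under 0.05 and the line is the median of the complex: it lies near 0 for complex I (0.07 and 0.09) and highest for complex III (0.55 and 0.81).

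The transcripts of the 83 genes summed to 68925 ± 3159 normalized counts in MSC wild-type, 63068 ± 4187 in MSC deficient, 87048 ± 1607 in OB wild-type and 84193 ± 5281 in OB deficient libraries (SD, n = 4 each). As a share of all reads they were 0.392% ± 0.0099, 0.386% ± 0.0331, 0.700% ± 0.0200 and 0.704% ± 0.0516. The 2 scales differ because a normalized MSC library sums to more: 16633416 to 18429578 normalized counts in MSC wild-type and 12189349 to 12690415 in OB wild-type libraries. The OB over MSC ratio of the summed level in wild-type mice was therefore 1.26 on normalized counts and 1.78 as a share of reads. For complex I it was 1.00 and 1.42, for complex II 1.25 and 1.77, for complex III 1.51 and 2.14, for complex IV 1.34 and 1.89, and for complex V 1.40 and 1.98. Complex I was thus level between the cell types on the first scale and higher in OBs on the second. Its sum includes Ndufa4, described below as part of complex IV, and the paralogue Ndufa4l2, with wild-type log2 fold changes of 1.20 and -3.24. Ndufa4l2 alone held 1422 to 4260 normalized counts in MSC wild-type libraries. The ratio was not computed without these genes, so the level sum does not describe the other complex I genes. The order of the complexes was the same on both, which adds no evidence, since within a library the 2 scales differ by 1 factor shared by all complexes.

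**Figure D2:**
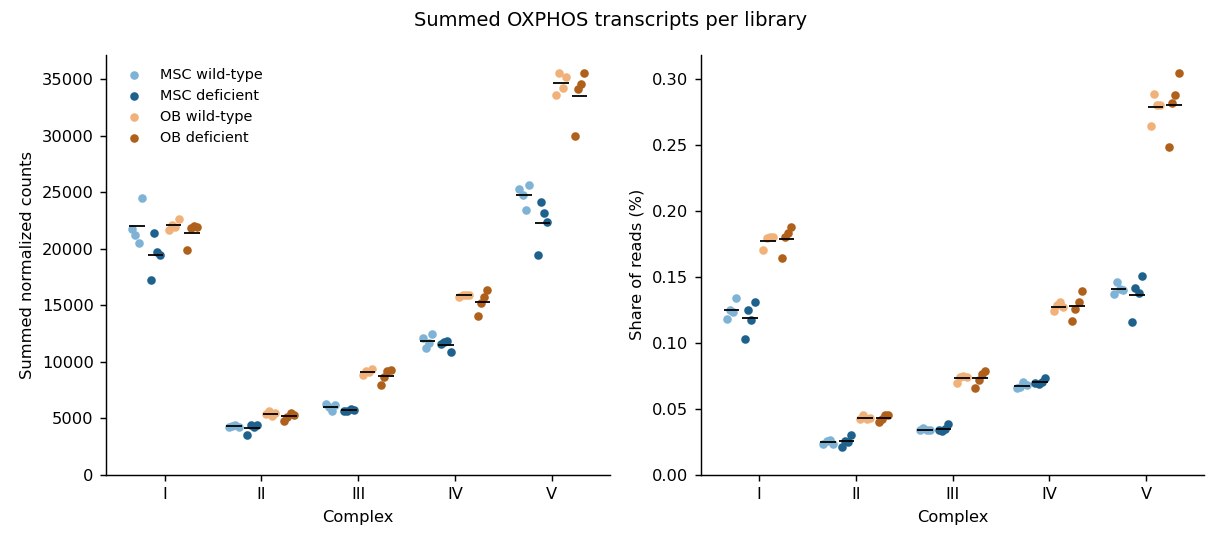
Summed level of each complex in each of the 16 libraries, as normalized counts (left) and as a percent of reads (right), with 1 point per library and a line at the group mean. Complexes II, III, IV and V are higher in OB than in MSC libraries on both scales, while complex I overlaps between cell types on the left.

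Within complex I, the 7 core subunits carry the flavin and the iron-sulfur clusters, and the accessory subunits stabilise and help assemble the enzyme. Only 1 of the 7 core genes passed between cell types. Ndufs8, which holds a pair of iron-sulfur clusters next to the quinone site, was 394, 499.7, 486 and 469 normalized counts in MSC wild-type libraries A to D and 650.5, 693, 669 and 776 in OB wild-type. All OB values lay above all MSC values (log2 fold change 0.59 ± 0.11, adjusted p 0.000496), and in deficient mice the log2 fold change was 1.05 ± 0.24 (adjusted p 0.00387). The others did not pass in either genotype, among them the flavin module subunits Ndufv1 (log2 fold changes -0.12 in wild-type and -0.11 in deficient mice) and Ndufv2 (0.23 and 0.05). Core and accessory genes had about the same median in wild-type mice, 0.05 and 0.09. In deficient mice the medians were -0.11 (2 of 7 above 0) and 0.22 (20 of 28 above 0), a contrast that was not tested.

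Of 28 accessory genes of complex I, 8 were higher and 4 lower in wild-type OBs, against 34.4% and 35.5% of all genes. In deficient OBs 11 were higher and 0 lower, against 29% and 30.6%. Ndufa12, which sits on the peripheral arm, was 303, 284, 182 and 231 in MSC and 427, 471, 493 and 481 in OB wild-type libraries, a 1.9-fold difference without overlap (adjusted p 0.000418). Ndufa10, a membrane-arm subunit with a nucleoside kinase fold, was 642, 742, 606 and 783 against 1017, 1115, 1109 and 1123 (log2 fold change 0.66 ± 0.10, adjusted p 0.00012). Ndufc2, of the membrane arm, was 441, 523, 441 and 515 against 721, 725, 738 and 706 (0.59 ± 0.09, adjusted p 0.000196). In each of the 3 genes the lowest OB library exceeded the highest MSC library, as also in deficient mice, where the log2 fold changes were 0.99, 0.65 and 0.90. Ndufb5, Ndufa9, Ndufa8, Ndufa3 and Ndufa6 were the remaining 5 higher in wild-type OBs, with log2 fold changes from 0.33 to 0.54. Ndufa6 did not pass in deficient mice (-0.10 ± 0.16), while Ndufb2, Ndufb7, Ndufb8 and Ndufs4 passed there and not in wild-type mice, with log2 fold changes of 0.77, 0.56, 0.51 and 0.75. With the mouse as a block Ndufs4 also passed in wild-type mice (adjusted p 0.0285, against 0.0543 without).

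The 4 accessory genes that were lower in wild-type OBs were Ndufa1, Ndufa13, Ndufb3 and Ndufb10. Ndufa1, an X-linked subunit of the membrane arm, was 399.6, 440.2, 379 and 533 in MSC and 263, 234, 279.5 and 309.8 in OB wild-type libraries (log2 fold change -0.68 ± 0.14, adjusted p 0.00142). Ndufa13, also known as GRIM-19, was 935, 1252, 853 and 1059 against 785, 708, 661 and 701 (-0.51 ± 0.12, adjusted p 0.00295). No OB library reached the lowest MSC library in either gene. In deficient mice neither passed: Ndufa1 was 163, 321, 216 and 212 in MSCs and 169, 269.6, 267 and 255 in OBs, with a log2 fold change of 0.09 ± 0.24, and that of Ndufa13 was -0.19 ± 0.22. Ndufb3 (adjusted p 0.0485) and Ndufb10 (0.0229) were close to the threshold: Ndufb3 no longer passed under 11 of 15 alternatives, the mouse as a block among them (0.0799), and Ndufb10 not without MSC library A or OB library B. The 16 accessory genes that did not pass lay between -0.36 (Ndufc1) and 0.38 (Ndufs4) on the log2 scale. The other X-linked complex I gene, Ndufb11, did not pass (0.20 ± 0.11 and -0.08 ± 0.13).

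Complex II is succinate dehydrogenase, shared with the citric acid cycle. Sdhd, a membrane anchor, was 717, 801, 722 and 715 in MSC and 1234, 1302, 1119.5 and 1316 in OB wild-type libraries. In deficient mice it was 704, 648, 877 and 701 and 1064, 1103, 1231 and 1183. Both genotypes showed it higher in OBs with no overlap (log2 fold changes 0.75 ± 0.08 and 0.65 ± 0.12, adjusted p 1.3e-05 and 0.00141). The other anchor, Sdhc, was higher by 0.31 and 0.31 (adjusted p 0.00472 and 0.0498), although in deficient mice 10 of 17 alternatives ended its call (0.0557 with the mouse as a block). The catalytic flavoprotein Sdha was higher in wild-type OBs by 0.23 (adjusted p 0.00911) and did not pass in deficient mice (0.25 ± 0.13). Sdhb, the iron-sulfur subunit, passed in neither (0.07 ± 0.10 and 0.15 ± 0.14). The 2 anchors thus had larger differences in wild-type mice than the 2 catalytic subunits, a contrast that was not tested.

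In complex III, Uqcrfs1, the Rieske iron-sulfur protein that is inserted last and hands electrons to cytochrome c1, had the largest difference. It was 706, 788, 617 and 768 in MSC and 1715, 1739, 1713 and 1759 in OB wild-type libraries, and 944, 557, 749 and 829 and 1463, 1548, 1692 and 1648 in deficient mice. The 4 wild-type OB values lay close together and far above the highest wild-type MSC value (log2 fold change 1.27 ± 0.09, adjusted p 3.37e-07). In deficient mice the log2 fold change was 1.07 ± 0.16 (adjusted p 0.000394). The small subunit Uqcrq was 639.7, 548, 551 and 538 against 920.0, 943, 946 and 1041 in wild-type mice (0.76 ± 0.09, adjusted p 1.99e-05), again without overlap. The core proteins differed in size of change: Uqcrc2 was higher by 0.59 ± 0.07 and Uqcrc1 by 0.31 ± 0.08 in wild-type mice. Uqcr10 (0.59), Uqcr11 (0.52), the hinge protein Uqcrh (0.39) and Uqcrb (0.32) completed the set. In deficient mice only Uqcrh did not pass (0.28 ± 0.13, adjusted p 0.0907). The call for Uqcr11 in wild-type mice was lost without MSC library B or without OB library A or B, and its groups overlapped.

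Among the 10 ubiquitous subunits of complex IV, 7 were higher in OBs in each genotype. Cox5a, which faces the matrix beside the catalytic core, was 391, 502, 468 and 485 in MSC and 984, 971, 927 and 967 in OB wild-type libraries, with deficient libraries at 467, 483, 502 and 503 and 837, 911, 939 and 941. Its levels fell into 2 narrow bands by cell type (log2 fold changes 1.06 ± 0.10 and 0.89 ± 0.10, adjusted p 2.79e-06 and 9.78e-05). Cox6b1, which faces the intermembrane space, was 641, 711, 832 and 822 against 1251, 1345, 1431 and 1325 in wild-type mice (0.84 ± 0.10, adjusted p 2.08e-05), also without overlap. Cox5b (0.58), Cox6c (0.47), Cox8a (0.44), Cox4i1 (0.29) and the X-linked Cox7b (0.25) were the other 5 in wild-type mice. Cox4i1 did not pass in deficient mice (0.15 ± 0.11), where Cox7a2 did (0.33 ± 0.13, adjusted p 0.044), a call that 10 of 17 alternatives ended (0.0554 with the mouse as a block). Cox6a1 (0.02 and 0.14) and Cox7c (0.12 and 0.06) passed in neither genotype. Cox7a2l, a factor that joins complexes III and IV into supercomplexes and is no subunit of a single enzyme, was 1098, 929.6, 751 and 574 against 1798, 1718, 1825 and 1918 (1.15 ± 0.17, adjusted p 9.87e-05).

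Ndufa4 carries a complex I name but is now placed in complex IV. It was 465, 719.8, 566 and 768 in MSC and 1421, 1362, 1507 and 1409 in OB wild-type libraries, and 498, 455, 509.8 and 567 and 1318, 1384, 1409 and 1529 in deficient ones. OB levels were 2.3-fold and 2.78-fold those of MSCs, with no overlap (log2 fold changes 1.20 ± 0.14 and 1.48 ± 0.11, adjusted p 2.3e-05 and 1.21e-05). Its paralogue Ndufa4l2 (chr10:127514967-127517154, plus strand, mm10) is known as a target of hypoxia-inducible factor and as a gene of pericytes. Ndufa4l2 was 1873, 1495, 1422 and 4260.4 in MSC and 137, 224, 161 and 423 in OB wild-type libraries, the opposite direction. The log2 fold change was -3.24 ± 0.39 (adjusted p 2.67e-05), the largest in size among the OXPHOS genes. Deficient MSC libraries E to H held 166, 1708, 677 and 608 and deficient OB libraries 69.1, 262, 149 and 54.9. The deficient groups overlapped, with MSC library E below OB library F, and the log2 fold change was -2.39 ± 0.69 (adjusted p 0.0141), a call lost without MSC libraries G and H. Per length, Ndufa4l2 made up 67.6% ± 9.49 of the pair in MSC wild-type, 44.1% ± 21.8 in MSC deficient, 9.64% ± 4.80 in OB wild-type and 5.77% ± 3.91 in OB deficient libraries (SD, n = 4).

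Cox4i2, the form of subunit 4 induced by low oxygen and present in lung and vessel walls, also passed as lower in OBs. It was 175, 158, 155 and 721 in MSC and 92.7, 46.8, 70.8 and 153 in OB wild-type libraries (log2 fold change -1.50 ± 0.51, adjusted p 0.0219). MSC library D stood far above the other 3, and the highest OB library, also lettered D, came close to the lowest MSC library. The call was lost without OB library B or C and under quantile normalization, and in deficient mice (-1.61 ± 0.60, adjusted p 0.0415) under 9 of 17 alternatives. Against its partner Cox4i1, Cox4i2 was 8.37% ± 6.29 of the pair per length in MSC wild-type and 2.40% ± 1.22 in OB wild-type libraries. Markers of mural cells (pericytes and vascular smooth muscle) were also lower in OBs, 10 of 10 in wild-type and 8 of 10 in deficient mice. None was at 0 in any library, and their sum was 16476 to 71298 in MSC wild-type and 3434 to 8963 in OB wild-type libraries. Some other lists were lower too: wild-type median log2 fold changes were -3.39 for mural, -3.36 for MSC stroma and -3.06 for adipocyte markers. Between genotypes in OBs, mural markers had a median of 0.65 (6 of 9 above 0), where Cox4i2 and Ndufa4l2 had -1.37 and -0.95. In MSCs the mural median was -0.40 (3 of 10 above 0), beside -1.25 and -1.79. The pericyte markers Rgs5 (5753 in library D, 1429 to 1844 in A to C) and Cspg4 (12542 in D, 5772 to 7518 in A to C) were likewise highest in MSC library D. The rest of the 10 markers are not given by library, and the part of such cells in the isoform levels was not tested.

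Cox6b2, known as the testis form of subunit 6b, moved the other way from those isoforms. It was 49.96, 67.3, 59.4 and 33.1 in MSC and 157, 206, 228 and 179.9 in OB wild-type libraries, and 77.5, 78.6, 54.9 and 87.7 and 156, 238, 226 and 211 in deficient ones. OBs were 3.71-fold and 2.76-fold higher with no overlap (log2 fold changes 1.89 ± 0.26 and 1.47 ± 0.24, adjusted p 7.35e-05 and 0.000605). The Cox6b2 part of the Cox6b pair per length was 8.58% ± 2.56 in MSC wild-type, 14.2% ± 3.72 in MSC deficient, 15.99% ± 1.45 in OB wild-type and 18.6% ± 2.62 in OB deficient libraries. Cox7a1, the heart and muscle form of subunit 7a, was 30.5, 32.4, 16.2 and 107 in MSC and 39.3, 18.2, 30.1 and 30.1 in OB wild-type libraries, and 9.39, 29.6, 20.9 and 16.1 and 2.94, 14.98, 12.4 and 6.76 in deficient ones. It passed in no comparison, and was also highest in MSC library D. Cox6a2, the heart and muscle form of subunit 6a, was 26.4, 82.9, 14.9 and 16.5 in MSC and 3.14, 0, 6.78 and 2.94 in OB wild-type libraries. It reached the filter of 10 only through the MSC libraries, and the OB libraries lay near the limit of detection, so it had to differ: it is 1 of the 7 genes counted as lower, and its fold change and p are not given. Its deficient MSC libraries held 0, 0, 19.6 and 74.5, and the 2 with reads, G and H, were those with the most skeletal muscle marker reads (15 markers, summed 762 to 6704 in MSC deficient and 594 to 799 in MSC wild-type libraries, with up to 3 and up to 5 markers at 0 in a library). The highest MSC value of Cox6a2, 82.9, was in wild-type library B, where muscle markers summed to at most 799. The part of muscle cells in these values was not tested. Cox8b, the muscle form of subunit 8, did not exceed 20.7 in any library, and Cox8c, the testis form, had reads in OB wild-type library B alone (2.60); neither was tested.

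**Figure D3:**
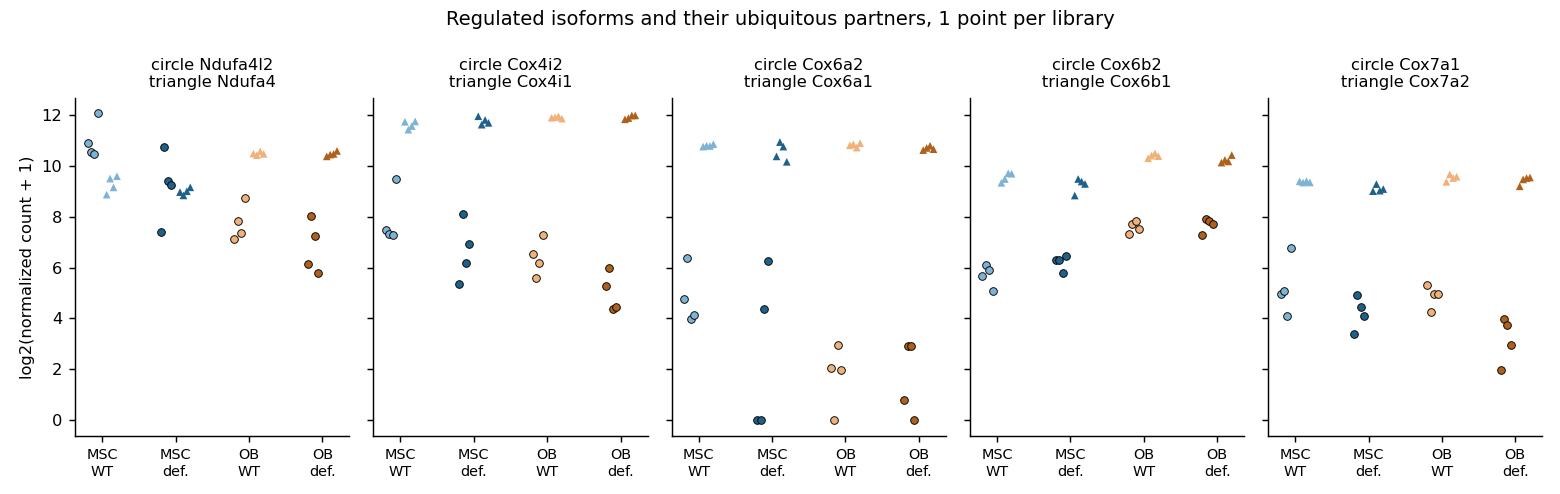
log2(normalized count + 1) of 5 restricted isoforms (circles) and their ubiquitous partners (triangles) in the 4 groups, with 1 point per library. Ndufa4l2 lies above Ndufa4 in MSC wild-type and below it in OB libraries, while Cox6b2 is higher in OB than in MSC libraries.

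The ATP synthase showed the difference across its parts. All 5 genes of the F1 head were higher in wild-type OBs, 3 of 4 of the peripheral stalk, 3 of 3 of the c-ring and 2 of 3 of the small membrane subunits. Atp5b, the catalytic beta subunit, was 7536, 7312, 6685 and 7595 in MSC and 10927, 11538, 10874 and 10716 in OB wild-type libraries, and 5293, 7129, 6952 and 6223 and 9625, 10874, 11155 and 11268 in deficient ones. OB libraries exceeded MSC libraries 1.51-fold and 1.68-fold, with no overlap (log2 fold changes 0.60 ± 0.07 and 0.75 ± 0.13, adjusted p 1.55e-05 and 0.00111). The alpha subunit Atp5a1 (0.52), gamma subunit Atp5c1 (0.50), epsilon subunit Atp5e (0.39) and delta subunit Atp5d (0.23) followed in wild-type mice. In deficient mice 4 of the 5 passed, and Atp5c1 did not (0.31 ± 0.13, adjusted p 0.0537).

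The c-ring that turns as protons pass is made of a single protein, subunit c, encoded by 3 genes that differ in the targeting peptide removed after import. Atp5g3 was 1379, 1182, 1470.2 and 1419 in MSC and 2072, 2290.4, 2125 and 2153 in OB wild-type libraries (log2 fold change 0.67 ± 0.08, adjusted p 2.73e-05). Atp5g1 was 247, 318, 292 and 369.7 against 392, 518, 449 and 525 (0.62 ± 0.15, adjusted p 0.00359), and Atp5g2 88.8, 117, 87.8 and 96.2 against 163, 215, 210.2 and 240.1 (1.08 ± 0.19, adjusted p 0.000476). All 3 were higher in every OB library than in every MSC library in wild-type mice, and all 3 passed in deficient mice (log2 fold changes 0.78, 1.06 and 1.03). Their division per length changed little: Atp5g3 made up 72.1% ± 3.94 in MSC wild-type and 70.7% ± 2.45 in OB wild-type libraries, Atp5g1 19.5% ± 2.86 and 18.4% ± 1.35, and Atp5g2 8.41% ± 1.60 and 10.9% ± 1.21. Reads of these genes can be shared, since 100% of the 50-base windows of the Atp5g2 transcript and 66.0% of those of Atp5g1 also occur in other annotated transcripts. Such windows made up over 50% of 6 OXPHOS transcripts (also Atp5l 84.8%, Cox7c 53.0%, Atp5h 50.5% and Atp5o 50.3%), and 37 transcripts had none.

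In the stalk, Atp5o, the oligomycin sensitivity conferring protein, was higher in wild-type OBs by 0.43 ± 0.07, Atp5f1 (subunit b) by 0.41 ± 0.08 and Atp5h (subunit d) by 0.31 ± 0.12, while coupling factor 6, Atp5j, did not pass (-0.15 ± 0.10). The membrane subunits Atp5j2 (0.32 ± 0.11) and Atp5k (0.30 ± 0.12) passed narrowly (adjusted p 0.0266 and 0.0369; 0.0775 for Atp5k with the mouse as a block), and each lost its call without MSC library B or C or OB library B or C. Atp5l did not pass (0.14 ± 0.20 and -0.33 ± 0.18). The same genes of stalk and membrane passed in deficient mice. Of the names caught by the rule that are no ATP synthase subunits, Atp5sl, an assembly factor of complex I, was 289, 245, 255 and 260.0 in MSC and 455, 473, 536 and 516 in OB wild-type libraries (0.91 ± 0.11, adjusted p 2.76e-05). It did not pass in deficient mice (0.32 ± 0.17), and Atp5s, factor B, passed in neither (0.56 ± 0.33 and 0.77 ± 0.38).

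Genes around the subunits were described from lists of the pathway, and their counts are to be read against the 34.4% higher and 35.5% lower of all genes in wild-type mice (29% and 30.6% in deficient mice). Of 21 complex IV assembly genes tested, 14 were higher and 1 lower in wild-type OBs (12 and 1 in deficient mice). Among them Sco2, a copper chaperone, was 342 ± 29.6 in MSC and 902 ± 17.8 in OB wild-type libraries (SD, n = 4). Of 15 complex I assembly genes, 6 were higher and 0 lower (5 and 0), with Ndufaf4 at 182 ± 11.6 and 688 ± 33.2. Of 7 complex II and III assembly genes, 3 were higher and 2 lower (3 and 0), near the share of all genes in wild-type mice, and 3 of 4 complex V assembly and inhibitor genes were higher in each genotype. The inhibitor of the ATP synthase, Atpif1, was 802 ± 29.9 in MSC and 2007 ± 130 in OB wild-type libraries. Of 12 genes of mobile carriers and quinone synthesis, 6 were higher and 1 lower (3 and 2), and of 13 citric acid cycle genes 10 and 2 (7 and 1). Of 15 outer membrane, chaperone and nucleotide carrier genes, 14 were higher and 1 lower (13 and 1), among them the adenine nucleotide carrier Slc25a5 at 1787 ± 122 and 4512 ± 136. Of 13 regulators of mitochondrial biogenesis tested in wild-type mice, 9 were higher and 2 lower in OBs (6 and 2 of 14 in deficient mice). The mitochondrial DNA packaging factor Tfam was 325 ± 27.7 in MSC and 620 ± 38.1 in OB wild-type libraries, Nrf1 was 409.7 ± 44.1 and 674 ± 53.9, and the GABP beta subunit Gabpb1 529 ± 106 and 1444 ± 41.4. All genes named from these lists had higher means in OBs, although the lists also held genes lower in OBs. The lowest log2 fold change of a regulator was -1.26 in wild-type and -2.07 in deficient mice, and that of a mobile carrier or quinone gene -1.56 in wild-type mice.

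Between genotypes, no OXPHOS gene passed in MSCs. With limma and Benjamini-Hochberg adjustment, 0 of 81 genes had an adjusted p under 0.05, against 1.06% of all genes tested. At an unadjusted p under 0.05 there were 20 of 81, or 24.7%, against 22.8% of all genes, and groups did not overlap in 12 of 81 (14.8%) against 12.4%, so both shares were near those of all genes. edgeR on recovered reads called 0 where it called 0.982% of all genes, and DESeq2 called 3 (Atp5l higher, Ndufa1 and Ndufb2 lower in deficient MSCs) where it called 7.97% of all genes. The median log2 fold change was -0.20 for OXPHOS genes and -0.03 for all genes, with 58 of 81 below 0. The result rested on MSC deficient library F: without it 15 genes passed, 3 higher and 12 lower, where 15.3% of all genes did. With all 16 libraries in 1 fit, which shares the OBs' smaller spread, 15 passed as well (14.4% of all genes). The median standard error of a log2 fold change in MSCs was 0.18.

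In deficient MSCs 6 of the 7 core genes of complex I had positive log2 fold changes (median 0.19), and 22 of 28 accessory genes had negative ones (median -0.30), beside a median of -0.03 over all genes. None of them passed, and the contrast between core and accessory genes was not tested. Ndufa1 was 163, 321, 216 and 212 in MSC deficient libraries E to H against 399.6, 440.2, 379 and 533 in wild-type A to D, the smallest adjusted p of the OXPHOS genes (0.0608, log2 fold change -0.97 ± 0.22). Ndufb2, a membrane-arm subunit, was 115, 205, 156 and 107 against 315, 207, 398 and 275 (-1.04 ± 0.28, adjusted p 0.0811). In both genes every deficient value lay below every wild-type value. Ndufa1 is X-linked. Of the libraries with high Ddx3y, wild-type A held 399.6, between C and B, while E and F held the lowest and highest deficient values (163 and 321). The part of sex in this difference was not tested. Ndufc1, also of the membrane arm, was 76.3, 263, 90.2 and 152 against 253, 307, 251 and 376 (-1.18 ± 0.36, adjusted p 0.106), with library F inside the wild-type range. The one core gene below 0 was Ndufs8, 173, 387, 307 and 276 against 394, 499.7, 486 and 469 (-0.74 ± 0.24, adjusted p 0.113).

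In the other complexes the medians in deficient MSCs were -0.06 (II), -0.08 (III), -0.24 (IV) and -0.20 (V), with 14 of 17 complex V genes below 0. Uqcrb, a small complex III subunit, was 239, 321, 233 and 279 against 427, 361, 387 and 373 (-0.54 ± 0.17, adjusted p 0.115). Atp5l, subunit g of the ATP synthase, was 285, 187, 248 and 283 against 180.4, 126, 157 and 153 (0.69 ± 0.22, adjusted p 0.116), higher in every deficient library, and most of its transcript is shared with other genes. Sdhb (-0.24) and Sdhc (-0.11) had the smallest p in complex II, and Cox7a2 (-0.27) and Cox4i2 (-1.25) in complex IV. Ndufa4l2 had a log2 fold change of -1.79 ± 0.58 (adjusted p 0.117), with library F, at 1708, inside the wild-type range and E, at 166, far below it. Cox6b2 (0.53 ± 0.36), Cox7a1 (-1.01 ± 0.65) and Cox6a2 (-2.17 ± 1.37) did not pass, nor did the X-linked Cox7b (-0.29 ± 0.16) and Ndufb11 (0.23 ± 0.16) or the non-subunits Cox7a2l (0.35 ± 0.28), Atp5sl (0.54 ± 0.19) and Atp5s (-0.20 ± 0.48). The marker lists also moved between these groups: 4 of 15 bone matrix and osteoblast markers and 4 of 10 B-lineage markers were lower in deficient MSCs, and the bone markers summed to 429416 to 1019566 against 1428509 to 1877639. Skeletal muscle markers were highest in deficient libraries G and H, without which 0 OXPHOS genes and 0% of all genes passed (9 OXPHOS genes at an unadjusted p under 0.05) and the medians were -0.18 and -0.02. With the muscle level as a covariate 0 of both passed as well (14 OXPHOS genes unadjusted), with medians of -0.16 and -0.03.

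The lower values in deficient MSCs were unevenly spread over libraries. Library E was the lowest of the 8 MSC libraries for 41 of 81 OXPHOS genes, 50.6%, against 20.5% of all genes tested. Its median log2 deviation from the wild-type mean was -0.36 over OXPHOS genes and -0.04 over all genes, while F, G and H had -0.02, -0.11 and -0.20. The OB library with the same animal number stood apart in the same way: it was lowest of 8 for 57 of 80 genes, 71.3% against 29.6% of all genes, with a median of -0.23 where F, G and H had -0.03, -0.02 and 0.02. Library E also held the highest Ddx3y of both sorts (3355 in MSCs and 1939 in OBs), and the part of sex or of the sorts under this animal number was not tested. Without library E the median genotype log2 fold change was -0.14 in MSCs and -0.00885 in OBs. The change in MSCs also varied with transcript length: OXPHOS transcripts under 600 bases had a median of -0.25 (25 genes), those from 600 to under 1000 bases -0.28 (28), from 1000 to under 2000 bases -0.09 (22) and from 2000 to under 4000 bases 0.01 (6), where all genes of these classes had 0.07, -0.14, -0.08 and -0.05.

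**Figure D4:**
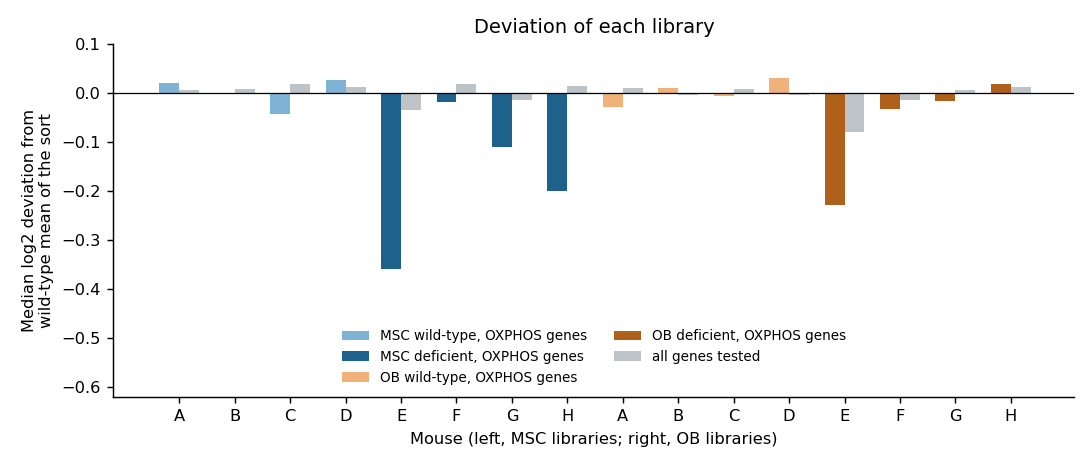
Median log2 deviation of each library from the mean of the wild-type libraries of its sort (vertical axis), over OXPHOS genes (coloured bars) and over all genes tested (grey bars), for mice A to H (horizontal axis; MSC libraries left, OB libraries right). Library E has the lowest OXPHOS value in both sorts, -0.36 and -0.23.

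In OBs, 0 of 80 OXPHOS genes passed between genotypes with limma, against 0.0281% of all genes tested. edgeR and DESeq2 called 0 as well, against 0.0281% and 1.34% of all genes. At an unadjusted p under 0.05 there were 6 (7.5%) against 8.95% of all genes, and 6 did not overlap (7.5%) against 5.47%. The median log2 fold change was -0.06, against -0.02 over all genes, with a median standard error of 0.08, so that genes were measured more tightly than in MSCs. Ndufs8 was 466, 597, 634 and 593 in deficient libraries E to H and 650.5, 693, 669 and 776 in wild-type A to D (-0.29 ± 0.11, adjusted p 0.441). Uqcrfs1 was 1463, 1548, 1692 and 1648 against 1715, 1739, 1713 and 1759 (-0.13 ± 0.06, adjusted p 0.559), and Cox7a1 2.94, 14.98, 12.4 and 6.76 against 39.3, 18.2, 30.1 and 30.1 (-1.71 ± 0.50, adjusted p 0.35). In these 3 genes every deficient library lay below every wild-type library, as also in Ndufa7, Ndufa11 and Atp5f1. The isoforms Cox4i2 (-1.37 ± 0.45), Ndufa4l2 (-0.95 ± 0.51) and Cox6b2 (0.10 ± 0.17) did not pass. None of the assembly, carrier, citric acid cycle, biogenesis or outer membrane genes listed above passed between genotypes in either cell type. Marker lists also differed between the OB groups. Bone matrix and osteoblast markers summed to 38719 to 161217 in deficient and 229895 to 448052 in wild-type OB libraries. Their median log2 fold change was -1.25, with 1 of 15 above 0 and 1 passing as lower. MSC stroma markers had a median of 0.60 and summed to 14353 to 89150 against 34579 to 49849. The part of such cells in the OXPHOS values was not tested.

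Whether the genotype difference itself differed between cell types was tested as OB effect minus MSC effect over all 16 libraries, which is also the test of whether the cell type difference differed between genotypes. With limma 0 of 81 OXPHOS genes passed, against 0.0129% of all genes, and edgeR and DESeq2 called 0, against 0.00643% and 0.913%. At an unadjusted p under 0.05 there were 8 (9.88%), against 11.5% of all genes. The smallest adjusted p was that of Ndufb2 (0.291), whose difference of effects was 0.99 ± 0.30. It was followed by Atp5sl (-0.60 ± 0.20, adjusted p 0.318), Uqcrb (0.49 ± 0.18, 0.349) and Ndufa1 (0.78 ± 0.29, 0.351). Without MSC deficient library F, 3 genes passed (Ndufa6, Ndufb2 and Ndufc1), where 3.69% of all genes did.

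Since the edited locus encodes miR-9, OXPHOS transcripts were searched for the seed site of this microRNA. The mature miR-9-5p (RefSeq, chr3:88215613-88215635, plus strand, GRCm38.p6) is shown with its seed, bases 2 to 8, in capitals.
miR-9-5p: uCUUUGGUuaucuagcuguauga
The site that pairs with this seed, ACCAAAG, occurred in 0 of 82 annotated 3′ UTRs of OXPHOS genes and in 11.2% of those of 17180 genes (1 transcript per gene). The OXPHOS 3′ UTRs were short, with a median of 155.5 bases against 804 over all genes, and the counts were not adjusted for this length. Other kinds of seed site were not searched, and the remaining gene of the 83, Atp5g2, was not included.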

How the data were processed

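The authors deposited 1 table of normalized counts (a signal per gene symbol) for 16 libraries. Per the submitters' processing notes it came from DESeq2 1.24.0 with the mm10 build; the filters and annotation used, the aligner and the counter were not given in the sources used here. All values were whole multiples of 1 step per library (100% whole within 0.01), which gave the read counts back.

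Values were tested as log2(normalized count + 1) with limma 3.58.1 (R 4.3.3; empirical Bayes with trend), over genes that reached 10 in at least 4 libraries of the fit, with Benjamini-Hochberg adjustment over all genes tested. The pseudocount of 1 understates changes of low genes. Of the 83 genes, 81, 80, 81, 80 and 81 passed this filter in MSC genotype, OB genotype, wild-type cell type, deficient cell type and difference comparisons. Alternatives used edgeR 4.0.16 and DESeq2 1.42.0 on recovered reads, pseudocount 5, no filter, a filter of 50, quantile normalization, 1 fit of all libraries, the mouse (shared animal number) as block, and left-out libraries. Code was tested on simulated data. Sequences came from RefSeq tables and the GRCm38 annotation. Figures used Python 3.11.15 and matplotlib 3.10.9.

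The members and lists were chosen with earlier results of these data known. The rule for naming took, per comparison and complex, up to 6 genes per direction that passed with the smallest adjusted p (or 2 where none passed), all isoforms, partners, non-structural and X-linked genes, and the highest and lowest per length; others were named after their values were seen, and 1 gene is counted but not reported here by name. Animal numbers are the same in both sorts: deviations of same-numbered libraries correlated with r of 0.0241 to 0.285, best with their own in 7 of 8. Nothing states that replicates were prepared apart beyond the animal number, so p-values measure the spread between these libraries.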

Additional observations from a re-analysis of the deposited data

Results flagged for a closer look

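In 19 of 245 groups of 4 libraries (7.76%; chance gives about 1 in 20), the highest or lowest library stood apart, with a gap to its nearest neighbour that was a large part of the group's range. The part is given after each gene.

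Library D stood apart in MSC wild-type for Cox4i2 (0.965; 721 against 155 to 175), Ndufa4l2 (0.841; 4260.4 against 1422 to 1873), Cox5b (0.902; 639 against 539.9 to 549.5), Ndufb11 (0.878; 682 against 915 to 948) and Atp5d (0.889; 1655 against 1437 to 1461). In the same group B was highest for Sdhc (0.954), Sdhd (0.919) and Cox6a2 (0.831), A for Uqcrq (0.874) and Ndufb3 (0.871), and C was lowest for Uqcrh (0.83).

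Library E was lowest in OB deficient for the summed complex I genes (0.925; 19845 against 21806 to 21964) and for Ndufa1 (0.853; 169 against 255 to 269.6), and in MSC deficient for Uqcrq (0.83; 288 against 469 to 506). In MSC deficient, F was highest for Sdhb (0.898) and Cox6c (0.848). In OB wild-type, B was lowest for Atp5l (0.893) and A for Ndufa10 (0.872), and A was highest for Ndufv2 (0.831). What sets these libraries apart was not tested.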

How the results depend on the processing

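Leaving out each library in turn, 0 to 15 OXPHOS genes passed between genotypes in MSCs (median log2 fold change -0.26 to -0.14), 0 in OBs (-0.09 to -0.00885), 42 to 51 between wild-type cell types (0.27 to 0.32), 33 to 49 between deficient cell types (0.38 to 0.48) and 0 to 3 for the difference of effects. The 15 and the 3 came without MSC deficient library F. In MSCs DESeq2 gave 3 and all 16 libraries in 1 fit gave 15. Quantile normalization moved the wild-type cell type median to 0.38, and the median of all genes to 0.17 (0.31 and 0.01 without it). With the mouse as a replicate block, 50 passed in the wild-type and 43 in the deficient comparison of sorts, and 0 for the difference; beyond the 5 genes given above it changed no call.

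Of the wild-type cell type calls, 36 of 44 higher and 4 of 7 lower passed under every alternative that could test them. Cox6a2 is 1 of these 4 lower genes, tested under 10 alternatives. Since it had to differ, its passing adds no support. Of the deficient calls, 27 of 43 higher and 0 of 2 lower passed under every alternative. No called gene changed sign. Among the genes named here, signs changed for some that had not passed: in wild-type mice Cox7a1 (0.272 under quantile normalization; -0.718 to 0.164 over left-out libraries, above 0 without MSC library D) and Cox6a1 (-0.00417 to 0.0531, below 0 without OB library D); in deficient mice Ndufb11 and Ndufv1 (0.0209 and 0.0154 under quantile normalization), Ndufa1 (-0.0529 to 0.271) and Ndufv2 (-0.0357 to 0.137; both below 0 without MSC library E) and Ndufa6 (0.0630 without MSC libraries G and H); and, for the difference, Sdhd (0.0104 without G and H). The causes were not tested.

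Low genes limit precision: a library with 0 reads allows up to 3 reads of a gene, so Cox6a2, Cox8b and Cox8c lie near the floor, and intervals of this kind cover counting error only.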
